A study of Homo sapiens with 24 samples.

Results

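The genes of cholesterol and lipid synthesis were followed in 4 established lines of triple-negative breast cancer (MDA-MB-157, MDA-MB-231, HCC38 and BT549) during exposure to cisplatin, a platinum drug that crosslinks DNA. The 32 listed genes cover the steps from acetyl-CoA to cholesterol, the SREBP regulators, sterol handling and fatty acid and glycerolipid synthesis. They were found by the gene symbol of their probes, and a gene was kept where a probe was detected (detection p under 0.05) on at least 2 arrays. This left 31 of the 14807 genes measured in all. FDFT1 had no probe with its symbol and was not analysed here. Of the 31 genes, 27 were detected on all 24 arrays, TM7SF2 on 23, SREBF2 on 22, FADS2 on 19 and STARD4 on 7.

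Each line received 2 µM cisplatin and was collected after 0, 24 and 72 h, in 2 replicates that the series' design text calls independent, which gave 12 groups of line and time. All groups are cultures of established lines, so each line stands for 1 tumour, and the 0 h groups are the cells before exposure. No untreated culture of the later times entered the comparisons, so the drug and the hours in culture cannot be told apart. These are bulk measurements, so fewer cells of a kind and less RNA per cell cannot be told apart either.

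Cells make cholesterol from acetyl-CoA through mevalonate, isoprenoids, squalene and lanosterol, and they make fatty acids from the same acetyl-CoA. The genes of both routes share a transcriptional switch, the SREBP proteins, encoded by SREBF1 and SREBF2. These are made as membrane proteins of the endoplasmic reticulum and are held there by SCAP and the INSIG proteins while sterols are ample. When sterols run low, SCAP carries them to the Golgi, where the proteases MBTPS1 and MBTPS2 release the part that enters the nucleus. There it binds sterol regulatory elements, usually together with NF-Y, which recognises CCAAT boxes, and with SP1, which recognises GC boxes. INSIG1 is itself a target of the switch, so its RNA is a common readout of SREBP activity.

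Promoter sequences of 28 of the 31 genes were found in RefSeq for GRCh38.p14, read over the 250 bases before the gene's outermost start. A CCAAT box (CCAAT or ATTGG, both strands) lay in 17 of the 28 promoters (60.7%), against 33% of 27305 promoters of the same length. At least 2 copies were found in 11 of the 28 (39.3%), against 10% of all. A GC box (GGGCGG or CCGCCC) lay in 24 of the 28 (85.7%), against 42.2% of all. The core TCACNCCAC, searched on both strands, lay in SREBF2 alone among the 28 (3.57%), against 0.868% of all. Only this form was searched, within these 250 bases, so elements of another form or place would be missed. The 27305 promoters include genes that were not detected on these arrays, while the 28 are all of detected genes. The shares among detected genes alone were not computed, so no excess is read as a trait of the pathway. The promoters of 4 genes are shown because the results below turn on them or because they carry the motifs in different numbers, and capitals mark the CCAAT box and the TCACNCCAC core on either strand.

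The promoters of INSIG1 and INSIG2, whose levels ranked the lines differently, lie at chr7:155297628-155297877 (plus strand) and chr2:118088221-118088470 (plus strand). INSIG1 has 1 CCAAT box in this window and INSIG2 has 0. HMGCS1, at chr5:43313413-43313662 (minus strand), has 2. SREBF2, at chr22:41832855-41833104 (plus strand), has 1, together with the core. The marked matches do not overlap.
INSIG1 promoter: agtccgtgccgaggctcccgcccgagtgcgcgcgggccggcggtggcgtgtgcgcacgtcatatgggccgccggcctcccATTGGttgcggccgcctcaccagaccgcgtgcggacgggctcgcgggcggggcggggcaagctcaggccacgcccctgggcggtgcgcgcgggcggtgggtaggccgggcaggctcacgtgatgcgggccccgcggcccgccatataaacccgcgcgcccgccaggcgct
INSIG2 promoter: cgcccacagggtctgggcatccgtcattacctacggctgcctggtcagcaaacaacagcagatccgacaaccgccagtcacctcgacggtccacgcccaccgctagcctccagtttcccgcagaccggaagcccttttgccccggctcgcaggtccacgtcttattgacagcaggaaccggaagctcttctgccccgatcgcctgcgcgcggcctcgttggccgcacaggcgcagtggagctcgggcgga
HMGCS1 promoter: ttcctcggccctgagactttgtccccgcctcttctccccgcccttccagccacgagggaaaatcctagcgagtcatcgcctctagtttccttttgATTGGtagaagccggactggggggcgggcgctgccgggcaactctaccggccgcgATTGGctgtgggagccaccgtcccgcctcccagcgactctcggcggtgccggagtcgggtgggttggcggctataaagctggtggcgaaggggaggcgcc
SREBF2 promoter: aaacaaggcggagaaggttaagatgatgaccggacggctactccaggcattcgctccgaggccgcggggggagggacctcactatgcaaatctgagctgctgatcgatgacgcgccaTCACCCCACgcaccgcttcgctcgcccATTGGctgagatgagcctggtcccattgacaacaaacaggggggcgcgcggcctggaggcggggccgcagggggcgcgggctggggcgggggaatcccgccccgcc

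Values are log2 intensities after background correction and quantile normalization, with 1 probe, the brightest, standing for a gene. Levels are compared only within a probe, never between genes. Between 38.7% and 46.4% of the probes were detected per array, and 2 arrays per group limit the precision. The arrays differed in brightness before normalization, with a 75th percentile of intensity from 134.2 to 283.1. In BT549 it was 159.6 to 180.2 on the arrays at 24 and 72 h, against 281.0 and 221.6 at 0 h. Among the receptor genes that define triple-negative tumours, ESR1 was detected on 0 arrays, PGR on 2 and ERBB2 on 24. Of markers of other cells, PTPRC, CD3E and CDH5 were detected on 0 arrays and PECAM1 on 6, and CD14 was detected on all 24; their part in the results was not tested. The 2 slides held 12 arrays each, 1 of every group, so a value within a slide compares single arrays.

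In several groups the 2 replicates lay far apart in these genes, and most of the wide gaps of a group ran 1 way. In MDA-MB-231 at 72 h, 15 of the 31 genes read over 0.5 log2 higher on replicate 2 than on replicate 1 and 0 read as much lower, against 5.27% and 5.94% of all genes. At 0 h in MDA-MB-231 the counts were 16 and 1, against 13.4% and 12.9% of all genes. In HCC38 at 0 h, 9 read higher on replicate 2 by that much and 0 lower, against 7.88% and 8.93%. BT549 ran the other way, with 13 of 31 lower on replicate 2 at 24 h and 0 higher, against 11.5% and 8.93% of all genes. What differed between those cultures was not tested. Results that rest on 1 array are therefore given with and without it.

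**Figure D1:**
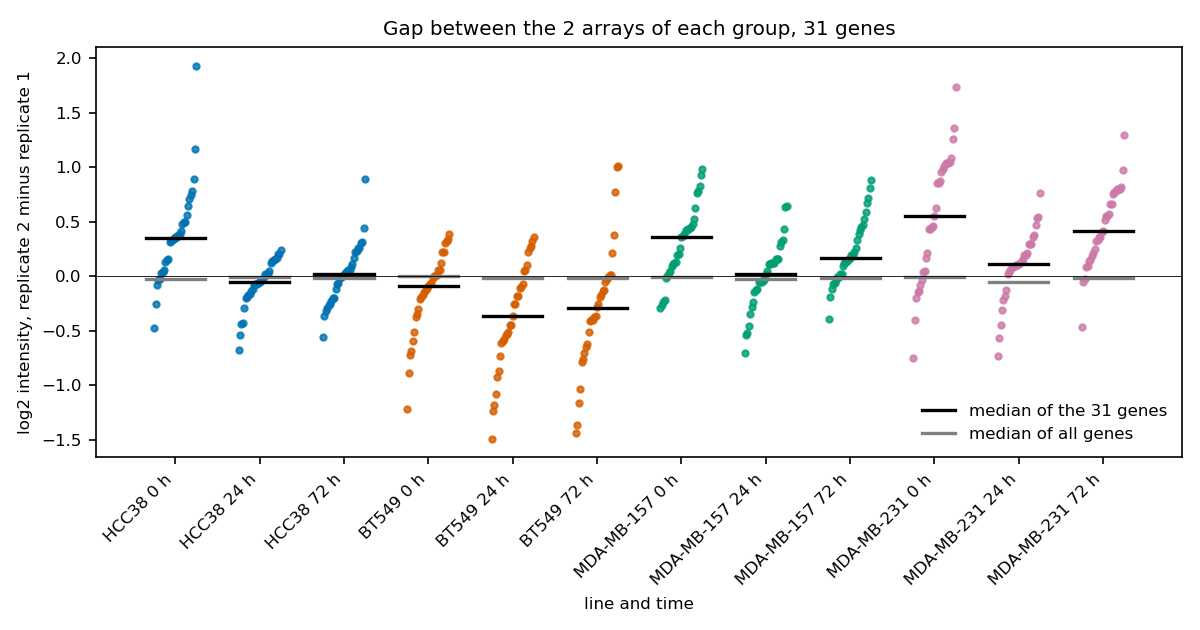
Each point is 1 of the 31 genes and shows the log2 intensity of replicate 2 minus that of replicate 1 in a group. Black bars mark the median of the 31 genes and grey bars the median of all 14807 genes, which lies near 0 in every group. The black bar is highest for MDA-MB-231 at 0 h (0.55) and lowest for BT549 at 24 h (-0.37).

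Before the drug most genes of the module differed between the lines, as did most genes measured. By limma's F test on the 0 h arrays, 24 of the 31 genes (77.4%) differed between lines (adjusted p under 0.05), against 66.7% of all genes. The median range between the highest and the lowest line was 1.53 log2 for the 31 genes and 1.01 for all genes. BT549 was the highest line for 15 of the 31 genes and MDA-MB-157 the lowest for 16. The 7 genes that did not pass were FDPS, CYP51A1, HSD17B7, SREBF2, TMEM97, ACLY and FASN. Their ranges ran from 0.17 log2 for TMEM97 to 0.91 for HSD17B7. A further TMEM97 probe ranged over 0.76 log2, highest in MDA-MB-231 and lowest in BT549, the reverse of the probe used. HSD17B7 and FDPS have near-identical pseudogene copies, so which copy a probe read is uncertain. HSD17B7 was called lower in BT549 than in the other lines (-0.80, adjusted p = 0.031, reaching 0.167 when 1 array was left out), a difference of -0.02 with median scaling.

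**Figure D2:**
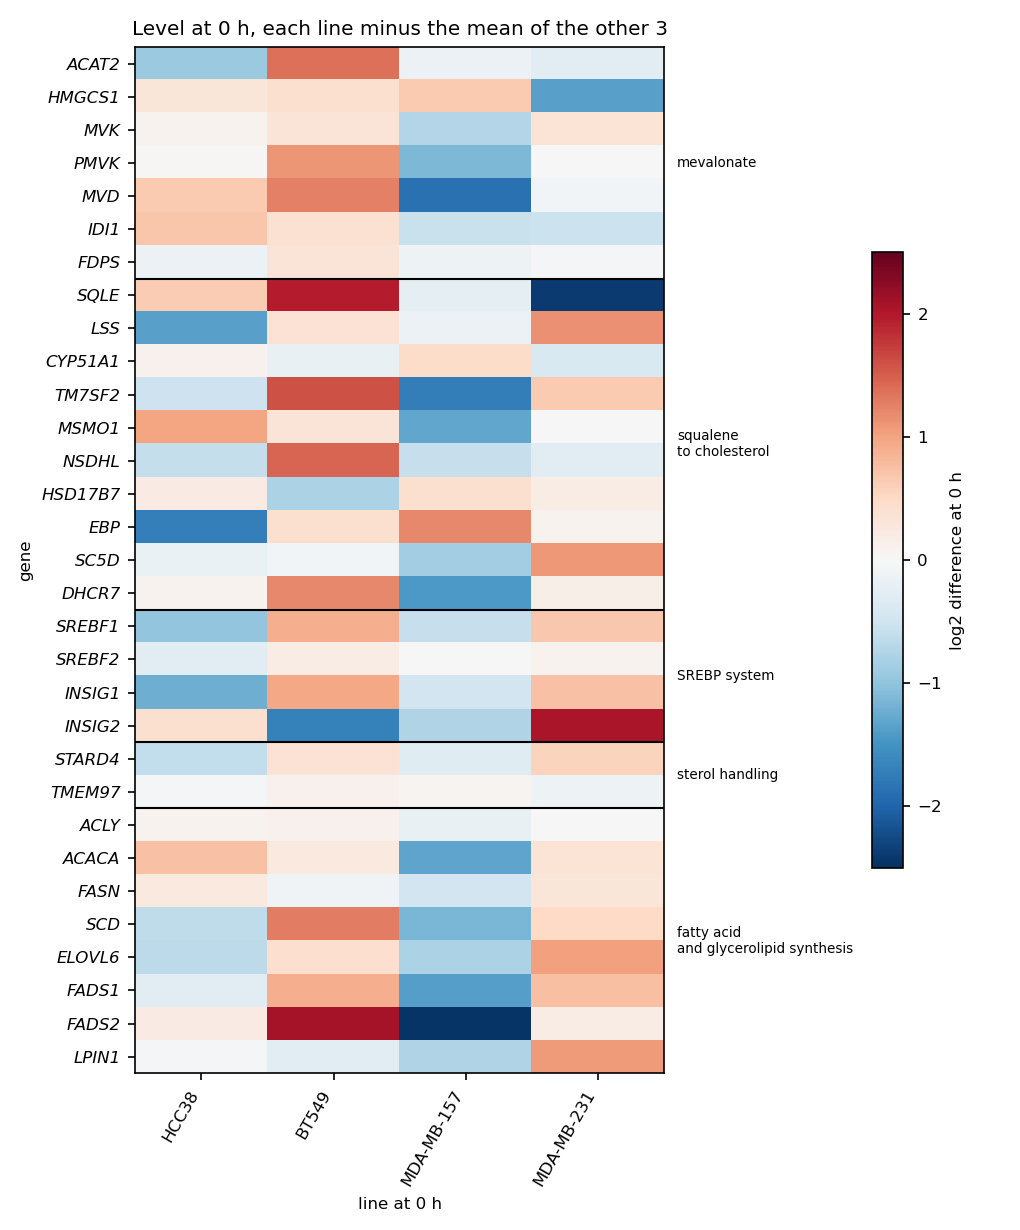
The colour gives each line's mean log2 level at 0 h minus the mean of the other 3 lines, with genes down the page by role and lines across. Red is higher in the named line. BT549 is mostly red, with SQLE at 1.96 and NSDHL at 1.45, and MDA-MB-157 mostly blue, with MVD at -1.86 and DHCR7 at -1.44. FADS2 in MDA-MB-157, and STARD4 in HCC38 and MDA-MB-157, were not detected at 0 h, so their colours give a direction and no size. MVD and TM7SF2 in MDA-MB-157 were detected near the limit, so the size of their differences is uncertain.

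Each line was set against the mean of the other 3. MDA-MB-157 had 16 genes called lower and 1 higher, against 43.2% of all genes called in either direction, and the median of the 31 genes was -0.57. BT549 had 12 called higher and 2 lower, against 41.1% of all genes, with a median of 0.39. HCC38 had 8 lower and 5 higher (43.5% of all genes, median -0.04). MDA-MB-231 had 7 higher and 2 lower (37% of all genes, median 0.19). Of all 14807 genes, 3293 were called lower and 3111 higher in MDA-MB-157, and 2976 lower and 3107 higher in BT549. The counts were 3186 and 3250 in HCC38, and 2881 and 2603 in MDA-MB-231. Without replicate 2 of MDA-MB-231 at 0 h its median was -0.09 and that of HCC38 0.06, so both signs turn on that array, while MDA-MB-157 lay at -0.48 and BT549 at 0.47. With each array scaled to its median in place of quantile normalization, the medians were -1.05 in MDA-MB-157, 1.17 in BT549, 0.17 in HCC38 and -0.32 in MDA-MB-231. All genes then lay at -0.24, 0.38, 0.08 and -0.26 in the same order. The direction thus held in MDA-MB-157 and BT549 and turned in HCC38 and MDA-MB-231. Of the 124 differences of a member in a line, 53 were called, beside the shares of 37% to 43.5% of all genes per line. All 53 kept their sign on both slides and with median scaling, and 27 stayed called without each single array in turn.

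Among the mevalonate genes, MVD, which forms isopentenyl diphosphate, read 5.31 and 5.51 in MDA-MB-157 at 0 h, and averaged 7.27 in the other lines. It was 3.63-fold lower there (limma adjusted p = 1.7e-06). Both MDA-MB-157 arrays detected it, but near the detection limit, so the size of this fold is uncertain. PMVK, a kinase of the step before, was 2.19-fold lower in MDA-MB-157 (adjusted p = 1.4e-05) and 2.15-fold higher in BT549 (2.2e-05). ACAT2, which joins acetyl-CoA units at the start of the route, read 11.78 and 12.17 in BT549 against a mean of 10.61 in the other lines. That is 2.58-fold higher (adjusted p = 1.5e-06). HMGCS1, which makes HMG-CoA, was lowest in MDA-MB-231, at 9.09 and 10.17 against a mean of 10.98 elsewhere. The difference was -1.35 log2 (SE 0.28, adjusted p = 7.9e-04), and its adjusted p reached 0.067 when 1 array was left out.

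The widest spread among the steps from squalene to cholesterol was that of SQLE, which epoxidises squalene and is a rate-limiting step of the route. In MDA-MB-231 at 0 h it read 8.73 and 9.68, against a mean of 11.59 in the other lines, which is 5.23-fold lower (adjusted p = 1.4e-07). In BT549 it read 12.47 on both arrays, 3.90-fold above the other lines (adjusted p = 1.5e-06). The BT549 and MDA-MB-231 means thus lay 9.6-fold apart. All 6 BT549 arrays exceeded all 6 MDA-MB-231 arrays over the whole time course, and a further SQLE probe gave the same order of the 4 lines, with a range of 3.47 log2. LSS, which closes the sterol rings to lanosterol, did not follow it. It was highest in MDA-MB-231, at 9.74 and 10.75 against a mean of 9.10 elsewhere (1.14 log2, SE 0.26, adjusted p = 0.0019). Without replicate 2 of MDA-MB-231 at 0 h this was 0.64 (adjusted p = 0.134). Of 2 dimmer LSS probes, 1 was highest in MDA-MB-231 and 1 in MDA-MB-157, so its probes disagree.

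Later steps ranked the lines in still other ways. EBP, a sterol isomerase, was 3.24-fold lower in HCC38 than in the other lines (adjusted p = 4.7e-06) and 2.30-fold higher in MDA-MB-157 (2.1e-04), the line that was lowest for 16 genes of the module. NSDHL, a decarboxylating dehydrogenase, was 2.73-fold higher in BT549 (adjusted p = 2.6e-07). TM7SF2, a sterol reductase, was 3.01-fold higher in BT549 (1.1e-04) and 3.31-fold lower in MDA-MB-157 (3.9e-05). Its mean in MDA-MB-157 was 5.43, near the detection limit, so the size of the latter fold is uncertain. DHCR7, which catalyses the last reduction to cholesterol, was 2.72-fold lower in MDA-MB-157 (0.0017).

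The paralogues INSIG1 and INSIG2, which both retain SCAP in the endoplasmic reticulum, were ordered differently across the lines. INSIG2 read 9.63 and 9.49 in MDA-MB-231 at 0 h against a mean of 7.51 elsewhere, 4.13-fold higher (adjusted p = 2.0e-08). In BT549 it read 7.12 and 6.40 against 8.44 elsewhere, 3.21-fold lower (adjusted p = 2.5e-07). INSIG1, in contrast, was highest in BT549, at 11.48 and 11.46 against a mean of 10.51 in the other lines (0.96 log2, SE 0.36, adjusted p = 0.038, reaching 0.157 when 1 array was left out). MDA-MB-231 lay close behind, at a mean of 11.30, and a dimmer INSIG1 probe was highest there, at a mean of 7.45 against 6.42 in BT549. INSIG1 was called lower in HCC38 (-1.22, adjusted p = 0.0088), but that difference was -0.01 within slide 1 and -2.44 within slide 2. The HCC38 arrays of the 2 slides at 0 h read 10.80 and 8.87. SREBF1 showed the same split in HCC38, with -0.98 pooled (adjusted p = 0.044), -0.11 within slide 1 and -1.85 within slide 2. SREBF2, the chief regulator of the cholesterol genes, had line means of 5.17 to 5.52, near the detection limit, and was not called (adjusted p = 0.661).

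Among the fatty acid genes, FADS2, a desaturase of polyunsaturated fatty acids, was not detected on the MDA-MB-157 arrays at 0 h, where its mean was 4.47, against 7.87 in BT549. BT549 lay at least 7.34-fold above MDA-MB-157, HCC38 at least 2.76-fold and MDA-MB-231 at least 2.75-fold, each bound being taken against the higher of the gene's own signal and the lowest detected signal on the MDA-MB-157 arrays. The MDA-MB-157 difference from the other lines had an adjusted p of 1.9e-05. FADS1, the neighbouring desaturase gene, was 2.60-fold lower in MDA-MB-157 (2.1e-04) and 1.87-fold higher in BT549 (0.0079, reaching 0.189 when 1 array was left out). ACACA, which makes malonyl-CoA for fatty acid synthesis, was 2.5-fold lower in MDA-MB-157 (3.6e-05). ELOVL6, which lengthens palmitate, was 2.03-fold higher in MDA-MB-231 (1.4e-05). SCD, which desaturates stearate, was 2.43-fold higher in BT549 (0.013), although its adjusted p reached 0.194 when 1 array was left out. ACLY and FASN, the first and last enzymes of palmitate synthesis from citrate, ranged over 0.20 and 0.58 log2 between the lines and were not called. A further ACLY probe ranged over 0.88 log2, lowest in MDA-MB-157 at a mean of 9.65, so the narrow range holds for the brightest probe only.

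Under cisplatin no gene of the module was called with all arrays, the normalized values described above and no replicate block. Some other settings called members, and these are given with the dependence on processing below. Averaged over the lines, 0 of 31 genes passed limma's test (adjusted p under 0.05) at 24 h, where 0.0135% of all genes were called, and 0 of 31 at 72 h, where 1.14% were. At an unadjusted p under 0.05 there were 9 of 31 at 24 h, all lower, against 8.81% of all genes in either direction, and 8 of 31 at 72 h, all lower, against 15.5%. The median change of the 31 genes was -0.14 log2 at 24 h (23 below 0) and -0.12 at 72 h (20 below 0), where the median of all genes was -0.01 and 0.00. Within the 2 slides it was -0.05 and -0.31 at 24 h, and -0.06 and -0.23 at 72 h. Without replicate 2 of MDA-MB-231 at 0 h it was -0.08 and -0.07. With median scaling it was -0.29 at both times, when all genes lay at -0.09 and -0.08.

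Some members were lower in every line when all arrays were used. At 24 h, 12 of the 31 genes were lower than at 0 h in all 4 lines, against 9.36% of all genes, and 0 were higher in all 4, against 8.84%. At 72 h 9 were lower in all 4 lines, against 9.54% of all genes, and 2, EBP and ACLY, were higher, against 9.08%. These counts depend on single arrays, at 0 h and at the later times. Without replicate 2 of MDA-MB-231 at 0 h, 3 genes were lower in all 4 lines at 24 h (STARD4, ACACA and FASN), against 8.94% of all genes, and 1 at 72 h (STARD4), against 9.9%. Without replicate 2 of MDA-MB-157 at 0 h the counts were 7, against 9%, and 2, against 9.33%. Without replicate 1 of MDA-MB-231 at 72 h the count at 72 h was 5, against 9.88%, and without replicate 1 of MDA-MB-157 at 72 h it was 6, against 10.3%. Without replicate 2 of BT549 at 24 h the count at 24 h was 8, against 7.82%. With all arrays, LSS, MSMO1, SREBF1, STARD4, FASN, SCD, FADS1 and LPIN1 were lower in all 4 lines at both times, although STARD4 was not detected in HCC38 or MDA-MB-157. The 4 lines share no control arrays with each other, but the 24 h and 72 h comparisons of a line share its 0 h arrays, so the counts at the 2 times are not independent of each other. The F test over the 8 single-line changes called 0 of 31 genes, against 0.0743% of all genes, and 3 at an unadjusted p under 0.05, against 9.85%.

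**Figure D3:**
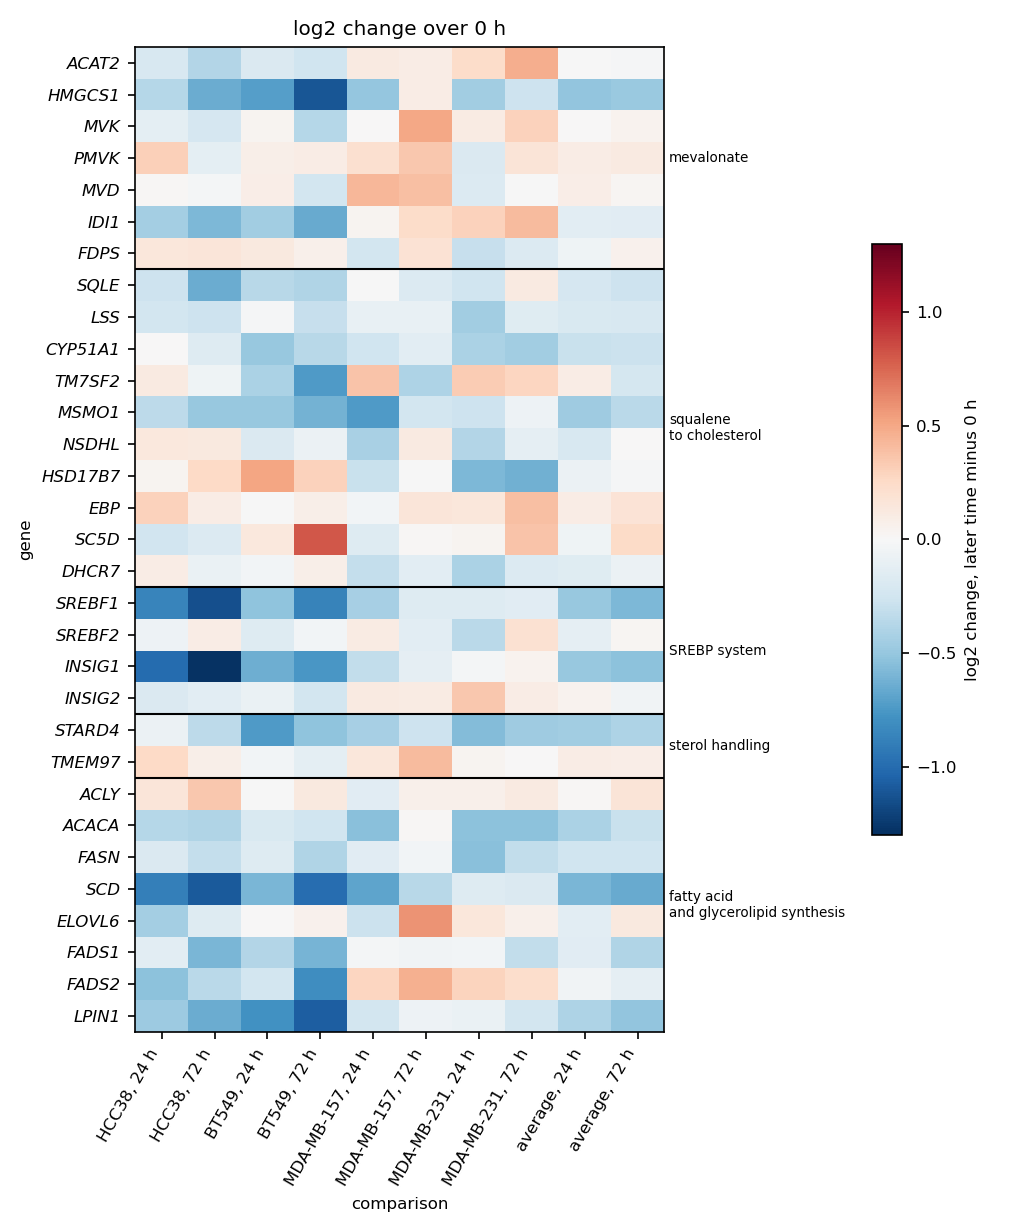
The colour gives the log2 change of each of the 31 genes, later time minus 0 h, in each line and on the average of the 4 lines, with genes down the page by role. Blue is lower than at 0 h. The strongest blue lies in HCC38 and BT549, with INSIG1 at -1.28 in HCC38 at 72 h and HMGCS1 at -1.11 in BT549 at 72 h. No value passed limma's test in this fit, which used all arrays and no replicate block.

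The medians differed by role. The 7 mevalonate genes had a median of -0.01 at 24 h and 0.03 at 72 h on the average of the lines, with 4 and 3 genes below 0. With median scaling these were -0.15 and -0.16, so the sign at 72 h depends on the scaling. The 10 genes from squalene to cholesterol had medians of -0.18 and -0.14, with 8 and 7 below 0. For the 4 genes of the SREBP system they were -0.31 and -0.29, with 3 of 4 below 0 at both times. The 8 fatty acid and glycerolipid genes had medians of -0.21 and -0.28, with 7 and 6 below 0. With that 0 h array of MDA-MB-231 left out (replicate 2), the medians at 24 and 72 h were 0.01 and 0.06 for the mevalonate genes, -0.04 and -0.02 from squalene to cholesterol, -0.22 and -0.24 for the SREBP system, and -0.15 at both times for the fatty acid and glycerolipid genes. No test between these roles was made.

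Single lines gave the same count of 0 genes called in all 8 comparisons, again with all arrays, the same normalized values and no replicate block. Of all genes, 0.027% were called in BT549 at 24 h, 0.081% in HCC38, 0.986% in BT549, 0.081% in MDA-MB-157 and 0.00675% in MDA-MB-231 at 72 h, and 0% in the other 3 comparisons at 24 h. At an unadjusted p under 0.05 there were 2 genes in HCC38, 2 in BT549, 3 in MDA-MB-157 and 1 in MDA-MB-231 at 24 h, all lower, against 4.42%, 5.5%, 4.36% and 8.51% of all genes. At 72 h there were 7 in HCC38 (6 lower), 6 in BT549 (5 lower), 1 in MDA-MB-157 (higher) and 3 in MDA-MB-231 (2 lower), against 10.3%, 12.4%, 6.91% and 9.27%. HCC38 had a median of -0.19 at 24 h and -0.22 at 72 h over the 31 genes, and BT549 -0.19 and -0.30. MDA-MB-157 had -0.15 and 0.02, and MDA-MB-231 -0.17 and -0.01. With median scaling, where all genes lay at -0.28 and -0.22 in HCC38 and at -0.40 and -0.47 in BT549, the 31 genes lay at -0.54 and -0.54 in HCC38 and at -0.73 and -0.97 in BT549. The BT549 arrays at 0 h were also the brightest of that line, and the part of brightness in these values was not tested. In MDA-MB-231 the median without replicate 2 at 0 h was 0.13 at 24 h and 0.25 at 72 h, so the sign there rests on that array. Single arrays moved the other lines too. Without replicate 2 at 24 h the BT549 median at 24 h was 0.02, and without replicate 2 at 72 h its median at 72 h was -0.11. Without replicate 2 at 0 h the MDA-MB-157 medians were 0.02 and 0.20, and without replicate 1 at 0 h they were -0.30 and -0.14. In HCC38 without replicate 2 at 0 h the medians were -0.02 and -0.11, and without replicate 1 they were -0.38 and -0.34. The lines did not pass the test of a difference in their changes, with 0 of 31 genes called against 0% of all genes, and 1 gene, ELOVL6, at an unadjusted p under 0.05, against 6.2%.

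Both arrays of a later time lay below both 0 h arrays for 10 of 31 genes at 24 h and 13 at 72 h in HCC38, against 17.8% and 22.2% of all genes. In BT549 the counts were 10 and 12, against 19.1% and 22.6%. MDA-MB-157 had 9 and 3, against 18% and 19%, and MDA-MB-231 had 3 and 1, against 14.4% and 17.5%. Both later arrays lay above both 0 h arrays for 6 and 1 genes in HCC38 (14.8% and 19.2% of all genes), 1 and 3 in BT549 (16.9% and 19.5%), 5 and 7 in MDA-MB-157 (19.3% and 22.2%) and 2 and 2 in MDA-MB-231 (16.1% and 18.2%). STARD4 is counted as lower in MDA-MB-157 at both times and in HCC38 at 72 h. FADS2 is counted as higher in MDA-MB-157 at both times. Neither was detected at 0 h in the line named for it, so these entries order signals near background. The 1 gene lower in MDA-MB-231 at 72 h was STARD4, which was detected there on 1 of 2 arrays. The 8 genes with the lowest p in the F test over the single-line changes are described next, by role.

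**Figure D4:**
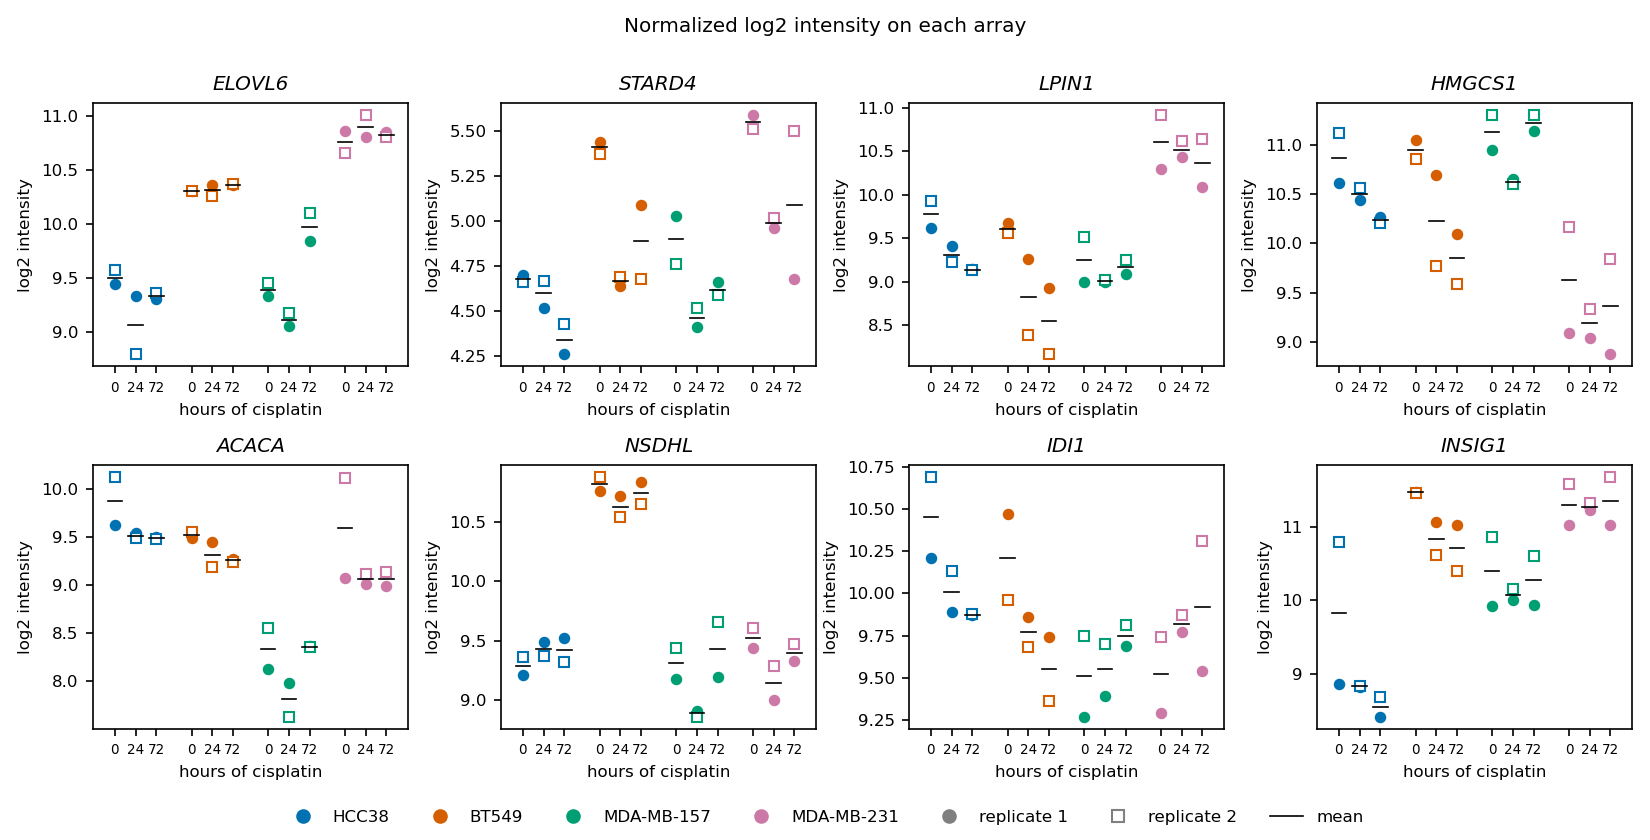
Normalized log2 intensity of the 8 genes on each of the 24 arrays, with lines in blocks and hours of cisplatin on the horizontal axis. Filled circles are replicate 1, open squares replicate 2 and bars their mean, and the vertical axes differ between panels and do not start at 0. The distance between lines exceeds the distance between times for most panels, and the pair at HCC38 0 h is wide for INSIG1 (8.87 and 10.80).

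HMGCS1 makes HMG-CoA, the precursor of mevalonate. In BT549 it read 11.05 and 10.86 at 0 h, 10.70 and 9.77 at 24 h and 10.10 and 9.59 at 72 h. In HCC38 it read 10.62 and 11.12 at 0 h, 10.44 and 10.56 at 24 h and 10.27 and 10.21 at 72 h. In both lines all 4 later arrays lay below both 0 h arrays. MDA-MB-157 read 10.95 and 11.31 at 0 h, 10.66 and 10.61 at 24 h and 11.14 and 11.31 at 72 h, so only the 24 h arrays were lower. MDA-MB-231 read 9.09 and 10.17, 9.04 and 9.33, and 8.87 and 9.84 at the 3 times, and its groups overlapped. The average change was -0.51 log2 at 24 h (SE 0.17, limma adjusted p = 0.401) and -0.48 at 72 h (adjusted p = 0.171), lower in 4 and 3 of 4 lines. Within slides 1 and 2 it was -0.22 and -0.79 at 24 h, and -0.37 and -0.59 at 72 h. The largest single-line value was -1.11 in BT549 at 72 h (SE 0.35, adjusted p = 0.153), with -0.75 and -1.46 within the slides. Within replicate numbers 1 and 2, which deviated together in BT549, it was -0.94 and -1.27. With the replicate block, for which the share of all genes called is not given, its adjusted p was 0.016.

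IDI1 interconverts the 2 isoprenoid units from which squalene is built. In HCC38 it read 10.21 and 10.69 at 0 h, 9.89 and 10.13 at 24 h and 9.87 and 9.88 at 72 h. In BT549 it read 10.47 and 9.96, 9.86 and 9.68, and 9.74 and 9.36 at the same times. The later arrays lay below the 0 h arrays in both lines. In MDA-MB-157 the arrays read 9.27 and 9.75, 9.39 and 9.70, and 9.69 and 9.81, and in MDA-MB-231 9.29 and 9.74, 9.77 and 9.87, and 9.54 and 10.31, with means above 0 h. The average over the lines was -0.14 at 24 h and -0.15 at 72 h (SE 0.13, limma adjusted p = 0.811 and 0.655), with -0.05 and -0.22, and -0.06 and -0.23, within the slides. At 72 h the single-line changes were -0.58 in HCC38, -0.66 in BT549, 0.24 in MDA-MB-157 and 0.41 in MDA-MB-231 (SE 0.26), and the test of a difference between the lines' changes gave an adjusted p of 0.821.

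NSDHL removes a methyl group of the sterol nucleus after lanosterol. In MDA-MB-157 it read 9.18 and 9.44 at 0 h, 8.91 and 8.86 at 24 h and 9.19 and 9.66 at 72 h. In MDA-MB-231 it read 9.44 and 9.61, 9.0 and 9.29, and 9.33 and 9.47. The 24 h arrays lay below the 0 h arrays in both lines, and the 72 h arrays overlapped them. In BT549 the readings were 10.76 and 10.88, 10.72 and 10.54, and 10.84 and 10.65, and in HCC38 9.21 and 9.36, 9.49 and 9.37, and 9.52 and 9.32. The average change was -0.21 at 24 h (SE 0.09, limma adjusted p = 0.524) and 0.01 at 72 h (adjusted p = 0.967). Within slides 1 and 2 it was -0.12 and -0.31 at 24 h, and 0.12 and -0.09 at 72 h.

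INSIG1, the sterol-dependent retention factor, showed the lowest single-line value of the module. In HCC38 it read 8.87 and 10.80 at 0 h, 8.82 and 8.84 at 24 h and 8.42 and 8.68 at 72 h. Replicate 1 at 0 h thus lay beside the 24 h arrays and replicate 2 far above them. BT549 had 11.48 and 11.46 at 0 h, 11.07 and 10.62 at 24 h and 11.02 and 10.40 at 72 h, with all 4 later arrays below both 0 h arrays. MDA-MB-157 had 9.93 and 10.86, 10.00 and 10.16, and 9.94 and 10.61, and MDA-MB-231 11.03 and 11.58, 11.23 and 11.32, and 11.02 and 11.68, and in both lines the groups overlapped. The changes at 72 h were -1.28 in HCC38 (SE 0.44, limma adjusted p = 0.280), -0.76 in BT549 (0.512), -0.12 in MDA-MB-157 and 0.05 in MDA-MB-231. Within slides 1 and 2 the HCC38 change was -2.38 and -0.19. Without replicate 1 at 0 h it was -2.25 in HCC38 (adjusted p = 0.0073), and without replicate 2 it was -0.32, so the value rests on which 0 h array is used. The average change was -0.49 at 24 h (SE 0.22, adjusted p = 0.528) and -0.53 at 72 h (adjusted p = 0.241), and a dimmer INSIG1 probe gave -0.42 and -0.33.

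SREBF1, which encodes the SREBP of the fatty acid genes, was added to these genes after its values were seen. It averaged -0.49 at 24 h and -0.58 at 72 h (SE 0.23, limma adjusted p = 0.567 and 0.227), with -1.14 in HCC38, -0.87 in BT549, -0.17 in MDA-MB-157 and -0.15 in MDA-MB-231 at 72 h. In BT549 the 72 h value was 0.43 within slide 1 and -2.18 within slide 2. Its arrays there read 9.75 and 8.53 at 0 h, 9.16 and 8.08 at 24 h and 8.95 and 7.58 at 72 h, so the replicates lay farther apart than the times. Each slide there pairs arrays of different replicate numbers, and within numbers 1 and 2 the 72 h value was -0.80 and -0.95. A dimmer SREBF1 probe averaged -0.09 at 24 h and -0.34 at 72 h. The partners SREBF2 and INSIG2 gave averages of -0.12 and 0.05 at 24 h, and 0.03 and -0.05 at 72 h.

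STARD4, which carries cholesterol between membranes, lay near the detection limit and was detected at 0 h in BT549 and MDA-MB-231 only. At 0 h it read 5.44 and 5.37 in BT549 and 5.59 and 5.51 in MDA-MB-231, and all 4 arrays detected it. On the BT549 arrays it read 4.64 and 4.69 at 24 h, where 0 of 2 detected it, and 5.09 and 4.68 at 72 h. In MDA-MB-231 it read 4.96 and 5.02 at 24 h and 4.68 and 5.50 at 72 h. In these lines both later arrays lay below both 0 h arrays at each time. HCC38 (4.26 to 4.70) and MDA-MB-157 (4.41 to 5.03) had 0 detected arrays, so their values give no order of levels, although they enter the average. In BT549 the 24 h level was at least 1.32-fold below that at 0 h. The average change was -0.45 at 24 h (SE 0.11, limma adjusted p = 0.204) and -0.40 at 72 h (adjusted p = 0.069), with -0.52 and -0.39, and -0.51 and -0.29, within the slides.

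ACACA, the carboxylase that commits acetyl-CoA to fatty acids, read 9.08 and 10.12 at 0 h, 9.01 and 9.12 at 24 h and 8.99 and 9.14 at 72 h in MDA-MB-231. Replicate 2 at 0 h stood apart from the other arrays of the line. In HCC38 it read 9.63 and 10.13, 9.54 and 9.49, and 9.50 and 9.48, and in BT549 9.49 and 9.55, 9.45 and 9.19, and 9.27 and 9.24, with all later arrays below the 0 h arrays in both lines. In MDA-MB-157 it read 8.13 and 8.55, 7.98 and 7.63, and 8.37 and 8.36. The average change was -0.41 at 24 h (SE 0.13, limma adjusted p = 0.355) and -0.29 at 72 h (adjusted p = 0.273), with -0.20 and -0.62, and -0.19 and -0.39, within the slides. Without replicate 1 of MDA-MB-231 at 0 h it was -0.54 at 24 h (adjusted p = 0.015) and -0.42 at 72 h (0.029), and without replicate 2 it was -0.28 and -0.16. A further ACACA probe averaged -0.34 and -0.31.

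ELOVL6 had the lowest p of the module in the F test over the single-line changes (0.0068, adjusted p = 0.319). In MDA-MB-157 it read 9.33 and 9.45 at 0 h, 9.05 and 9.17 at 24 h and 9.84 and 10.10 at 72 h, so the 24 h arrays lay below and the 72 h arrays above both 0 h arrays. In HCC38 it read 9.44 and 9.57, 9.33 and 8.79, and 9.30 and 9.36, lower at both later times. BT549 stayed between 10.26 and 10.37 on all 6 arrays, and MDA-MB-231 between 10.66 and 11.01. The changes at 72 h were 0.58 in MDA-MB-157 (SE 0.18, limma adjusted p = 0.318), with 0.78 and 0.39 within the slides, -0.17 in HCC38, 0.06 in BT549 and 0.07 in MDA-MB-231. A difference between the lines' changes had an unadjusted p of 0.014 and an adjusted p of 0.662. The average was -0.14 at 24 h and 0.13 at 72 h (SE 0.09). A further ELOVL6 probe averaged -0.11 and 0.11. In MDA-MB-157 that probe gave 0.05 at 24 h and 0.21 at 72 h, so the fall at 24 h there was seen on the brighter probe only. It gave -0.58 and -0.13 in HCC38, -0.14 and -0.02 in BT549 and 0.26 and 0.38 in MDA-MB-231.

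LPIN1, a phosphatidate phosphatase that makes diacylglycerol for triglycerides, came nearest to a call in a single line. In BT549 it read 9.67 and 9.56 at 0 h, 9.26 and 8.39 at 24 h and 8.92 and 8.16 at 72 h. In HCC38 it read 9.62 and 9.93, 9.41 and 9.22, and 9.14 and 9.13. All later arrays lay below the 0 h arrays in both lines. In MDA-MB-157 the readings were 8.99 and 9.51, 9.0 and 9.02, and 9.09 and 9.25, and in MDA-MB-231 10.30 and 10.92, 10.43 and 10.62, and 10.09 and 10.64, and the groups overlapped. The change in BT549 at 72 h was -1.07 (SE 0.29, limma adjusted p = 0.088), with -0.64 and -1.51 within the slides. Within replicate numbers 1 and 2 it was -0.74 and -1.41. With the replicate block, for which the share of all genes called is not given, its adjusted p was 0.013. On the average it was -0.40 at 24 h (SE 0.15, adjusted p = 0.478) and -0.51 at 72 h (adjusted p = 0.089), with -0.13 and -0.67, and -0.34 and -0.68, within the slides.

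The other members are summarised by their averages. SCD, the stearate desaturase, had the lowest average of the module, at -0.59 at 24 h and -0.66 at 72 h (SE 0.24, limma adjusted p = 0.508 and 0.176). With all arrays it was lower in 4 of 4 lines at both times. In MDA-MB-231 SCD read 12.02 and 13.06 at 0 h, with means of 12.37 at 24 h and 12.34 at 72 h. Without replicate 2 at 0 h it was therefore not lower in that line. MSMO1, which oxidises sterol methyl groups, averaged -0.46 and -0.35 (SE 0.18, adjusted p = 0.487 and 0.352), while its 2 further probes gave -0.01 and 0.16, and -0.34 and -0.60, so its probes disagree. FADS1 averaged -0.15 and -0.39 (SE 0.16, adjusted p = 0.833 and 0.225). FASN averaged -0.26 at both times, CYP51A1, which demethylates lanosterol, -0.29 and -0.28, SQLE -0.22 and -0.27, and LSS -0.20 and -0.21. When replicate 2 of MDA-MB-231 at 0 h was left out, the averages were -0.14 at both times for FASN, -0.16 and -0.15 for CYP51A1, -0.11 and -0.15 for SQLE, -0.08 at both times for LSS, -0.04 and -0.29 for FADS1 and -0.32 and -0.22 for MSMO1. On the other side of 0, ACLY, which makes acetyl-CoA from citrate, averaged 0.02 and 0.17, SC5D, a sterol desaturase, -0.06 and 0.25, and EBP 0.10 and 0.18. With median scaling ACLY read -0.11 and 0.04, SC5D -0.21 and 0.11 and EBP -0.05 and 0.03. In BT549 at 72 h SC5D lay at 0.81 (SE 0.28, adjusted p = 0.215), and at 0.07 with median scaling. ACAT2, MVK, MVD, FDPS and HSD17B7 lay between -0.08 and 0.09 at both times, and PMVK at 0.10 and 0.12. TM7SF2 averaged 0.10 and -0.23, DHCR7 -0.16 and -0.08, and FADS2 -0.05 and -0.12. Without the same array DHCR7 averaged 0.05 and 0.14. TMEM97, a membrane protein of cholesterol traffic, averaged 0.10 and 0.09, and -0.21 and -0.18 on a further probe.

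The distance between lines was larger than that between times for most members. In 28 of the 31 genes the range of the 4 line means at 0 h exceeded every single-line change, and the exceptions were TMEM97, ACLY and SREBF2. On further probes TMEM97 and ACLY ranged over 0.76 and 0.88 log2, with largest changes of -0.38 and 0.49, so they are exceptions on the probe used only. SQLE ranged over 3.27 log2 between lines, and its largest change with time was 0.64. INSIG2 ranged over 2.80, with a largest change of 0.35. INSIG1, in contrast, ranged over 1.64, with a largest change of 1.28. These are descriptions of the 4 lines, and no test set the 2 distances against each other. The share of all genes with such a range was not computed, so the count is not read as a trait of the module.

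Of 34 other genes of the pathway, 29 were measured, and 0 of them were called in any comparison with 0 h. Averaged over the lines, 18 of 29 lay below 0 at 24 h with a median of -0.02, and 19 at 72 h with a median of -0.06. At an unadjusted p under 0.05 there were 6 of 29 (20.7%) at each time, 5 lower and 1 higher at 24 h, against 8.81% of all genes, and 3 lower and 3 higher at 72 h, against 15.5%. The members' medians at the same times were -0.14 and -0.12, and no test of that difference was made.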

How the data were processed

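The 24 single-colour Illumina arrays of biotin-labelled RNA were read from the deposited table of non-normalized probe intensity, with a deposited detection p-value per probe and array. Upstream software is not given in the sources used here. Of 47322 probes, 30112 carried 1 gene symbol in GEO's platform annotation, 8 several and 17202 none. In limma 3.58.1 (R 4.3.3), background was corrected by normexp with negative controls inferred from the detection p-values and an offset of 16, followed by quantile normalization and log2. Genes detected (p under 0.05) on 2 arrays or more were kept, by their brightest probe, which left 14807 genes. All 12 groups entered 1 linear model (12 residual degrees of freedom, 6.57 prior), with Benjamini-Hochberg adjustment over all genes. The genes described in full are the 8 with the lowest p in the F test over the single-line changes. The members and lists were chosen with earlier results of these data known. The authors' deposited log2 values served as an alternative only, because their identifiers pointed to other probes: 47319 probes matched by value within 0.02, but 33 by identifier. Replicate numbers were checked as pairs by correlating the gap between replicates at different times over all genes: it was 0.38 to 0.50 in BT549, where the blocked values are given, and at or under 0.1 for at least 1 pair of times in each other line. The scripts were tested on simulated data.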

Additional observations from a re-analysis of the deposited data

How the results depend on the processing

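With 2 arrays per group, a single array could decide a call. The shares of all genes called under the settings that follow are not given. The counts of members therefore do not tell more calls in the module from more calls over all genes. The count of members called on the average of the lines ran from 0 to 1 at 24 h and from 0 to 3 at 72 h when each array was left out in turn, and over the single lines together from 0 to 2 at both times. Without replicate 1 of MDA-MB-231 at 0 h limma called ACACA at 24 h (-0.54, adjusted p = 0.015), and at 72 h HMGCS1 (-0.61, 0.043), ACACA (-0.42, 0.029) and LPIN1 (-0.59, 0.036). In MDA-MB-231 it then called HSD17B7 (-1.26 and -1.31) and ACACA (-1.05 at both times). Without replicate 1 of HCC38 at 0 h it called INSIG1 on the average at 72 h (-0.77, 0.026) and in HCC38 (-1.97 at 24 h and -2.25 at 72 h). Without replicate 1 of BT549 at 72 h it called STARD4 (-0.45, 0.041) and LPIN1 (-0.61, 0.037, and -1.46 in BT549), and without replicate 2 of MDA-MB-231 at 72 h STARD4 (-0.50, 0.022). Members that differed between lines at 0 h numbered 21 to 24 with 1 array left out and 17 to 26 under the other settings. With the authors' log2 values, 3 members were called in single lines at 72 h, all in BT549: HMGCS1 (-1.45), IDI1 (-1.0) and LPIN1 (-1.29). Deviations of same-numbered samples correlated at -0.05 to 0.50, over 0.1 in 7 of 12 pairs of times, among them all 3 in BT549. The correlation was 0.07 to 0.22 in HCC38, 0.05 to 0.18 in MDA-MB-157 and -0.05 to 0.12 in MDA-MB-231. Whether the numbers pair the samples in those lines is thus not settled, and the replicate block was fitted in all 4 lines. With the replicate block limma called 4 members on the average at 72 h, HMGCS1 (-0.48, adjusted p = 0.031), STARD4 (-0.40, 0.048), SCD (-0.66, 0.026) and LPIN1 (-0.51, 0.019), and 2 in BT549, HMGCS1 (-1.11) and LPIN1 (-1.07). The average at 72 h changed sign for ELOVL6 (0.13) with median scaling (-0.01) and without MDA-MB-157 (-0.02), and for IDI1 (-0.15) without BT549 (0.03). For NSDHL (0.01) it was -0.13 with median scaling, -0.07 with the authors' values, -0.03 without HCC38, -0.02 without MDA-MB-157 and -0.05 to 0.07 with each array left out. The causes were not tested. STARD4 had no value when detection on 12 arrays was required.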

Other observations

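The other genes of the pathway, too, differed between the lines at 0 h, where limma's F test called 26 of 29 (89.7%), against 66.7% of all genes. ABCA1, which exports cholesterol from cells, had a mean log2 intensity of 6.36 in HCC38, 5.46 in BT549, 7.94 in MDA-MB-157 and 10.18 in MDA-MB-231 (adjusted p = 6.1e-06), and in BT549 it was detected on 1 of 2 arrays. NR1H3, which encodes the oxysterol receptor LXR alpha, lay at 8.81 in HCC38, 5.57 in BT549, 7.93 in MDA-MB-157 and 7.75 in MDA-MB-231 (adjusted p = 2.6e-07). SCD5, a paralogue of SCD, lay at 5.20 in HCC38, 8.07 in BT549, 6.34 in MDA-MB-157 and 6.89 in MDA-MB-231 (adjusted p = 7.0e-08). AACS, which makes acetoacetyl-CoA for lipid synthesis, lay at 8.10 in HCC38, 5.73 in BT549, 6.41 in MDA-MB-157 and 6.68 in MDA-MB-231 (adjusted p = 1.6e-07). BT549 was thus lowest for ABCA1, NR1H3 and AACS and highest for SCD5.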
